A study of Mus musculus with 6 samples.

Results

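Cholesterol and fatty acids are built from acetyl-CoA by chains of enzymes whose genes share a pair of membrane-bound transcription factors, the sterol regulatory element binding proteins encoded by Srebf1 and Srebf2. Scap escorts these factors out of the endoplasmic reticulum when sterols are scarce, the Insig proteins hold them back when sterols are plentiful, and a pair of proteases then releases the active fragment. Excess cholesterol is passed out of the cell by the exporters Abca1 and Abcg1, whose genes are known targets of the liver X receptors. The 38 genes described here are the sterol pathway enzymes, regulators, sterol transport genes and lipogenic enzymes that were listed by name out of 41255 gene symbols in the table, with earlier results of these data known. They comprised 18 sterol enzymes, 8 regulators and transport genes and 12 lipogenic enzymes, and all 38 passed the filter on low values that left 11550 genes for testing.

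RNA-seq was performed on 6 monoclonal cultures of Ba/F3, a mouse lymphoid line that needs interleukin-3 to grow. The WT group (clones 28, 29 and 36) carried a retroviral human RPL10 cDNA without mutation, and the R98S group (clones 11, 13 and 35) carried the same cDNA with serine in place of arginine at the residue named in R98S. A short hairpin RNA against mouse Rpl10 was present in every clone of both groups, and all cultures received cycloheximide, a translation elongation blocker, at 100 µg/ml for 5 min before RNA isolation. Each culture was grown from a single cell, so a group stands for 3 selected clones and not for an uncloned population, and the level of the transgene product was not separated from that of the mouse gene.

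Libraries held between 21786776 and 24204991 reads on genes. Values are normalized counts, that is reads divided by the size factor of the library. Rpl10, the gene knocked down in all clones, had normalized counts of 2853, 3156 and 1900 in the WT clones and 3028, 1883 and 2617 in the R98S clones, and reads of the human cDNA may be included in these values. Among markers fixed for Ba/F3 and B lymphoid cells, the interleukin-3 receptor genes Csf2rb (46530 or more in every clone) and Csf2rb2 (39754 or more) were abundant, whereas 7 of the 13 genes, among them Pax5, Ebf1 and Igll1, had means under 10. The summed level of that list was 99408 to 119404 in WT and 135980 to 160654 in R98S clones, with Csf2rb (log2 fold change 0.53), Csf2rb2 (0.62) and Cd79b (1.22) called higher and Ptprc called lower (-1.33, adjusted p = 0.00894). The groups overlapped for Cd79b (396.3 in WT 28, 385.8 in R98S 35). Il3ra, at 646.4 to 918.8 over all clones (-0.18, adjusted p = 0.432), and Cd79a (0.20, adjusted p = 0.449) did not pass. The summed level of 5 macrophage markers was 9237 to 12637 in WT and 777 to 3131 in R98S clones, almost all of it Emr1, which was lower in R98S, as was Lyz2 at 43.03 or less, while Cd68 did not pass (155.7 to 237.5 in WT, 82.56 to 249 in R98S) and Csf1r and Mrc1 had means under 10. The summed T lymphoid list ran from 14 to 65 in WT and from 47 to 93 in R98S, with Cd3d called higher (8.597 to 17.41 in WT, 44.91 to 87.25 in R98S, adjusted p = 0.0112) and the other 4 genes at means under 10, and the fibroblast list from 12 to 25 and from 10 to 21. The part of these differences in the results below was not tested, and in bulk RNA fewer cells of a type and less RNA per cell cannot be told apart.

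A difference was called at an adjusted p under 0.1 (limma on log2 of the normalized count plus 1, two-sided, adjusted over all 11550 genes). Of the 38 members, 11 were called, 3 higher and 8 lower in R98S, which is 28.9% of them beside 23.9% of all genes tested. By direction, 7.89% of the members were higher beside 10.7% of all genes, and 21.1% were lower beside 13.1%. The share of members called was therefore close to that of genes at large. The fitted difference was below 0 for 29 of 38 members (76.3%, beside 50.9% of all genes), and the median log2 fold change was -0.30, beside -0.01 over all genes. The clones of the groups did not overlap for 9 members that were lower in R98S (beside 19.2% of all genes) and for 5 that were higher (beside 18.1%).

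**Figure D1:**
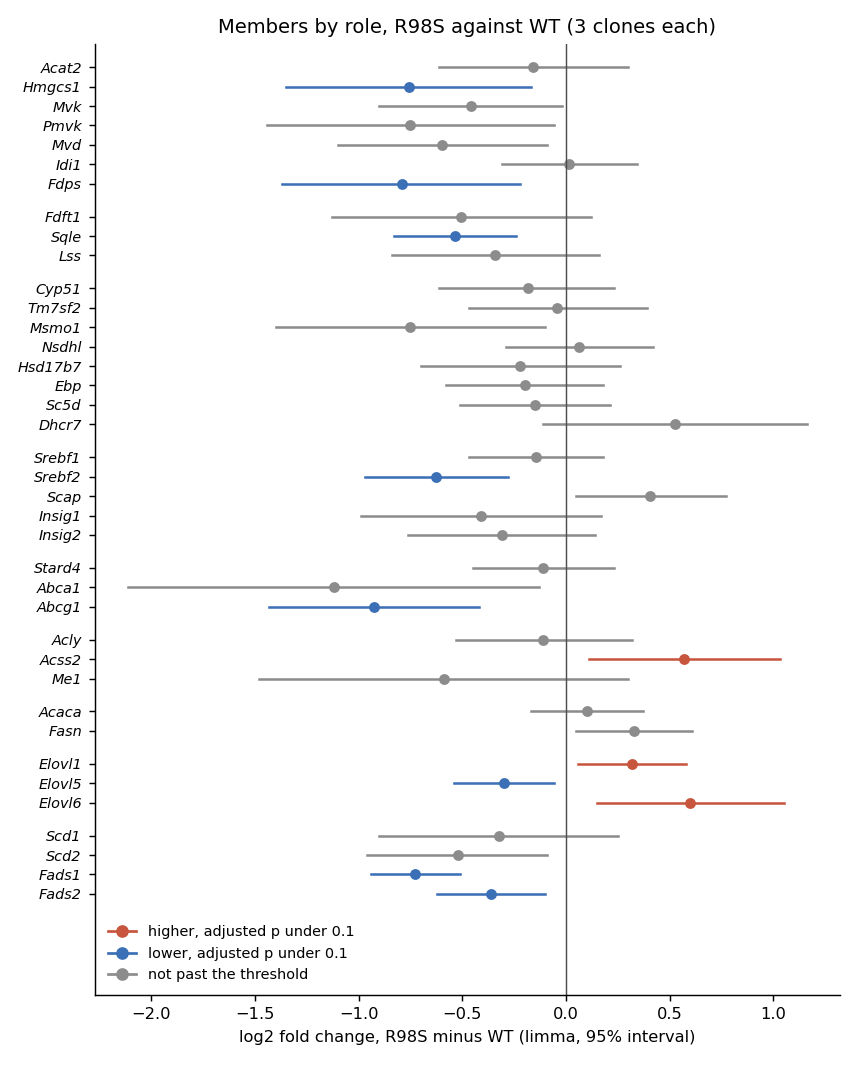
Log2 fold change of each of the 38 members, R98S minus WT, on log2(normalized count + 1), with its 95% interval from limma, grouped by role from the mevalonate enzymes at the top to the desaturases at the bottom. The 8 members called lower are blue, the 3 called higher are red, and most of the other points lie left of 0.

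The mevalonate enzymes turn acetyl-CoA into the isoprenoid farnesyl diphosphate, and 2 of the 7 fell (28.6%, beside 13.1% of all genes lower). Hmgcs1, the synthase that condenses acetoacetyl-CoA with acetyl-CoA (mm10/GRCm38 chr13:119690379-119708260, plus strand), had normalized counts of 4944, 7332 and 4247 in WT clones 28, 29 and 36 and of 3440, 4084 and 2260 in R98S clones 11, 13 and 35. Every R98S clone was below every WT clone, with R98S 13 only just under WT 36, and the log2 fold change was -0.76 (SE 0.26, adjusted p = 0.0831). Fdps, which makes farnesyl diphosphate (chr3:89093588-89101959, minus strand), stood at 3307, 4230 and 2815 in WT and at 2162, 2624 and 1333 in R98S. These groups did not overlap either, and Fdps fell by 0.79 on the log2 scale (SE 0.25, adjusted p = 0.0694). The annotated exons of Fdps share 1124 bases with Gm43738 on the same strand. If the annotation used for counting held both genes, some reads of Fdps could not be assigned with certainty.

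The other 5 mevalonate genes did not pass. Mvk, the mevalonate kinase, gave -0.46 (95% interval -0.90 to -0.02, adjusted p = 0.146), Pmvk, the next kinase, -0.75 (-1.44 to -0.06, adjusted p = 0.131) and Mvd, the decarboxylase, -0.60 (-1.10 to -0.09, adjusted p = 0.106). For each of the 3, the R98S clone 13 lay inside the WT range. Acat2, the cytosolic thiolase that supplies acetoacetyl-CoA, was at -0.16 (-0.61 to 0.30), and Idi1, the isopentenyl diphosphate isomerase, at 0.01 (-0.31 to 0.34). The values of Idi1 were 4635, 5310 and 4521 in WT and 5507, 5202 and 3998 in R98S, so both the highest and the lowest clone were R98S.

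Of the 3 enzymes that lead from farnesyl diphosphate to lanosterol, 1 fell (33.3%, beside 13.1% of all genes lower). Sqle, the squalene epoxidase (chr15:59315077-59331192, plus strand), had 4273, 5073 and 4090 normalized counts in WT and 3428, 3111 and 2721 in R98S. The groups were clear of each other and the log2 fold change was -0.54 (SE 0.13, adjusted p = 0.0296). Fdft1, the squalene synthase, was at -0.51 (-1.13 to 0.12, adjusted p = 0.239), and 774 bases of its exons lie opposite those of Ctsb. Lss, which closes the lanosterol ring, was at -0.34 (-0.84 to 0.16, adjusted p = 0.317).

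None of the 8 enzymes that process lanosterol into cholesterol was called by limma, and 1 of the 8 had an unadjusted p under 0.05 (12.5%, beside 31.7% of all genes). That gene was Msmo1, a methyl sterol oxidase, with 4378, 6157 and 3722 in WT against 2787, 4031 and 1866 in R98S (-0.75, -1.40 to -0.10, adjusted p = 0.111). DESeq2 called Msmo1, whereas edgeR called none of the 8. Cyp51, the lanosterol demethylase, Hsd17b7, Ebp and Sc5d, which act on later intermediates, ranged from -0.15 to -0.22, and the sterol reductase gene Tm7sf2 (-0.04) and the dehydrogenase gene Nsdhl (0.07, -0.29 to 0.42) were near 0. Tm7sf2 was weakly expressed (125.7 to 170 in all clones) and shares 532 exon bases with Vps51 on the same strand. Dhcr7, the last reductase of the pathway, had the opposite sign: 1035, 1508 and 640.5 in WT and 1526, 1550 and 1266 in R98S, with a log2 fold change of 0.53 (-0.11 to 1.16, adjusted p = 0.23). Its WT clones held the lowest of the 6 values and one just under the highest, and R98S clone 35 lay between them.

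For the 18 sterol enzymes together, 3 fell and none rose, with a median log2 fold change of -0.28. The share lower was 16.7%, beside 13.1% of all genes, and the share called in either direction was also 16.7%, beside 23.9%. The clones of each group also differed among themselves. WT 29 was the highest WT clone for 17 of the 18 genes, all but Tm7sf2, whereas it was the highest for 36.8% of all genes tested. WT 36 was the lowest for 15 of the 18 (43.2% of all genes). On the R98S side, clone 35 was the lowest for 16 of 18, all but Tm7sf2 and Ebp (30.8% of all genes), and for 7 of 7 mevalonate enzymes. Relative to each gene's mean over the 6 clones, the median of the 18 genes on the log2 scale was 0.14 in WT 28, 0.44 in WT 29, -0.01 in WT 36, -0.10 in R98S 11, 0.07 in R98S 13 and -0.46 in R98S 35. The medians of WT 36 and R98S 11 and 13 lay close to each other, and that of R98S 13 was above that of WT 36. The median standard deviation between clones of a group was 0.31 log2 units for the sterol enzymes, beside 0.20 for all genes and 0.18 for the 9504 genes with a mean of at least 100.

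**Figure D2:**
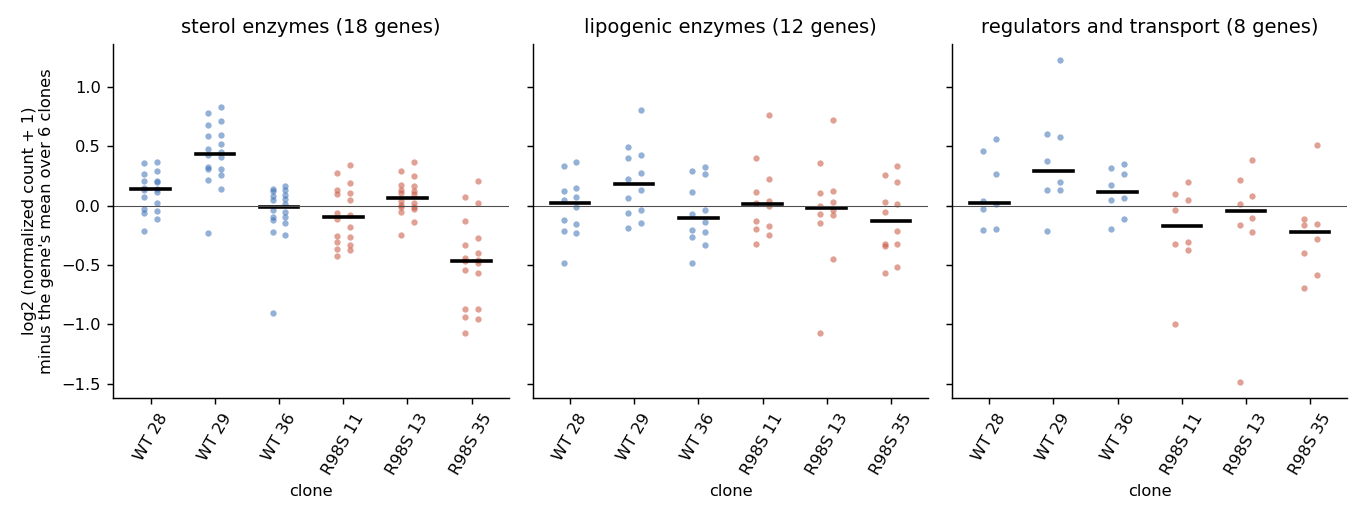
Each point is 1 gene in 1 clone, as log2(normalized count + 1) minus that gene's mean over the 6 clones, and black bars are medians over the genes of the panel. Among the 18 sterol enzymes WT 29 has the highest median (0.44) and R98S 35 the lowest (-0.46), while the clones of the lipogenic panel lie closer together.

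Srebf2, the transcription factor gene that acts chiefly on the sterol enzymes (chr15:82147181-82205379, plus strand), fell. Its normalized counts were 9019, 11367 and 7816 in WT and 5767, 6693 and 5660 in R98S, with no overlap and a log2 fold change of -0.62 (SE 0.15, adjusted p = 0.03). Srebf1, the factor associated mainly with fatty acid genes, was at 2326, 2477 and 2347 in WT and 1815, 2631 and 2095 in R98S (-0.14, -0.47 to 0.18, adjusted p = 0.521), its R98S clones lying on both sides of the WT ones. Scap, the escort protein, gave 1173, 1156 and 1172 in WT and 1544, 1251 and 1913 in R98S. All R98S clones of Scap were above all WT clones, but the difference did not pass (0.41, 0.05 to 0.77, adjusted p = 0.118), and 985 of its exon bases lie opposite 5830462I19Rik. Insig1 (-0.41, -0.99 to 0.17) and Insig2 (-0.31, -0.76 to 0.14), the retention factors, did not pass.

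Abcg1, which exports cholesterol to lipoprotein particles (chr17:31057675-31117988, plus strand), was 1306, 1421 and 1212 in WT and 475.7, 813.4 and 849.3 in R98S. R98S 11 was the lowest and no R98S clone reached the WT range, and the log2 fold change was -0.92 (SE 0.22, adjusted p = 0.0287). Abca1, the other exporter, had the lowest fitted value of all members (-1.12, -2.11 to -0.13), but its clones spread widely, 3923, 6202 and 2460 in WT and 2582, 949.2 and 2378 in R98S, and it did not pass (adjusted p = 0.116). WT 36 lay among the R98S clones of Abca1. Stard4, a carrier of sterols between membranes, was at -0.11 (-0.45 to 0.23).

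The lipogenic enzymes split in both directions, 3 higher and 3 lower of 12 (25% each, beside 10.7% and 13.1% of all genes), with 0 to 2 higher and 1 to 3 lower when any single clone was left out. Acss2, which makes acetyl-CoA from acetate (chr2:155517948-155585724, plus strand), rose from 619.5, 779.1 and 738.6 in WT to 935.4, 1427 and 874.3 in R98S. Clone 13 was well above the others and the groups did not overlap (0.57, SE 0.20, adjusted p = 0.0908). The exons of Acss2 lie opposite those of Ggt7, Acss2os and Gss over 927 bases, and whether reads were counted by strand is not given in the sources used here. Acly, which makes acetyl-CoA from citrate, was at -0.11 (-0.53 to 0.32), and Me1, a source of NADPH, at -0.59 (-1.48 to 0.30) with clones from 229.4 to 464.2 in WT and from 125.5 to 351.8 in R98S.

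Neither gene of fatty acid synthesis proper was called by limma on the deposited values of all clones. Acaca, the acetyl-CoA carboxylase, had a log2 fold change of 0.10 (-0.17 to 0.37). Fasn, the fatty acid synthase, was 8358, 8857 and 7249 in WT and 9368, 9887 and 11461 in R98S, higher in every R98S clone but not past the threshold (0.33, 0.05 to 0.61, adjusted p = 0.11).

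The 3 elongases among the members were called (beside 23.9% of all genes), not in the same direction. Elovl7, from the other lipid genes, was tested and did not pass (-0.09, adjusted p = 0.914). Elovl6, which extends palmitate (chr3:129532355-129638495, plus strand), rose from 2946, 3042 and 2479 in WT to 5866, 3727 and 3527 in R98S (0.60, SE 0.20, adjusted p = 0.0753), with R98S 11 far above the other clones. Elovl1, an elongase of very long saturated chains (chr4:118428093-118432953, plus strand), rose from 1895, 2017 and 1760 to 2459, 2109 and 2526 (0.32, SE 0.11, adjusted p = 0.0965). Elovl5, an elongase of polyunsaturated chains (chr9:77917364-77984519, plus strand), fell from 2827, 2999 and 3279 to 2301, 2461 and 2630 (-0.30, SE 0.11, adjusted p = 0.0945). The groups did not overlap for any of these 3 genes, though for Elovl1 clone R98S 13 was close to WT 29.

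The desaturases Fads1 and Fads2, which with Elovl5 build the long polyunsaturated fatty acids, fell together. Fads1, the delta-5 desaturase (chr19:10182888-10196877, plus strand), had 9481, 10139 and 9458 normalized counts in WT and 6034, 5528 and 6014 in R98S. These clones were the tightest of all members, with a within-group standard deviation of 0.06 log2 units, and the log2 fold change of -0.73 (SE 0.095) had the lowest adjusted p of the 38, 0.00367. Fads2, the delta-6 desaturase its nearest protein-coding neighbour upstream, on the opposite strand (chr19:10062765-10101746), was 4093, 4482 and 4008 in WT and 3289, 3614 and 2927 in R98S (-0.36, SE 0.11, adjusted p = 0.0663). Per kilobase of exon, the ratio of the level of Fads1 to that of Fads2 was 1.59, 1.55 and 1.62 in the WT clones and 1.26, 1.05 and 1.41 in the R98S clones. This pair was chosen after its values were seen, and the ratio is given without a test.

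The stearoyl-CoA desaturases, which make monounsaturated fatty acids, did not pass. Scd2 was the most abundant member per length, with a mean of 6329 normalized counts per kilobase in WT and 4391 in R98S. Its normalized counts of 36698, 40019 and 27023 in WT and 25944, 26867 and 19172 in R98S did not overlap, WT 36 being just above R98S 13, and the adjusted p of 0.1002 was just over the threshold (-0.52, SE 0.19). Scd1 was the least abundant, at 17.8 and 14.3 per kilobase (-0.33, -0.90 to 0.25). Fads1 fell from 2014 to 1218 per kilobase and Srebf2 from 1309 to 841. On this scale, which uses the exons of all annotated transcripts of a gene, Acss2 and Abcg1 were the rarest of the called members. They stood at 70.1 and 180 in WT and 106 and 97.7 in R98S.

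**Figure D3:**
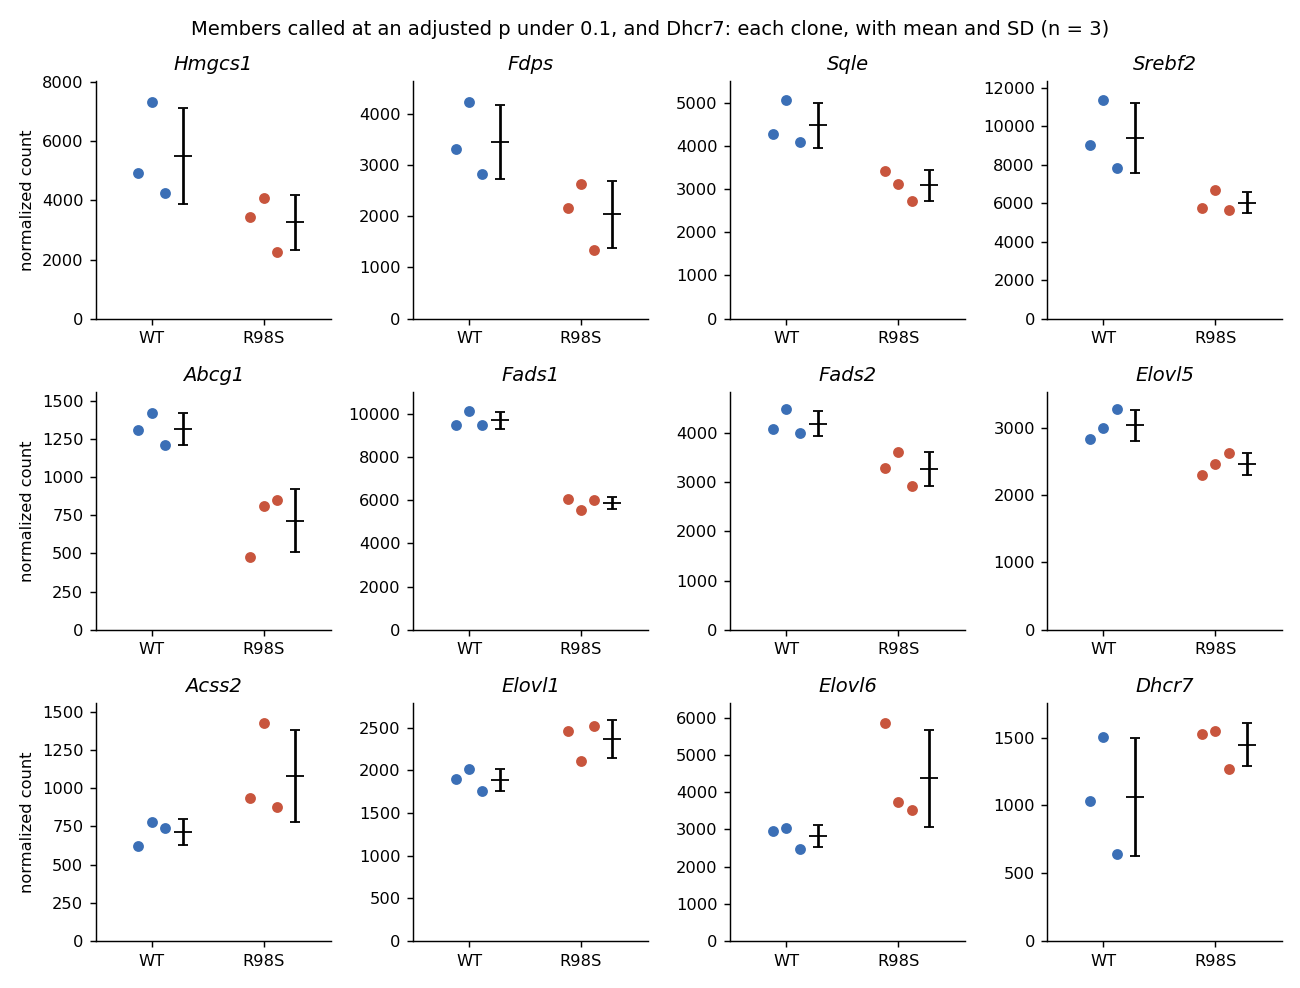
Normalized count of the 11 called members and of Dhcr7 in each clone (points), with the mean and SD of 3 clones beside them, on axes that start at 0. Fads1 shows the least scatter, from 9458 to 10139 in WT and from 5528 to 6034 in R98S, and Dhcr7 is the panel in which the groups overlap.

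**Figure D4:**
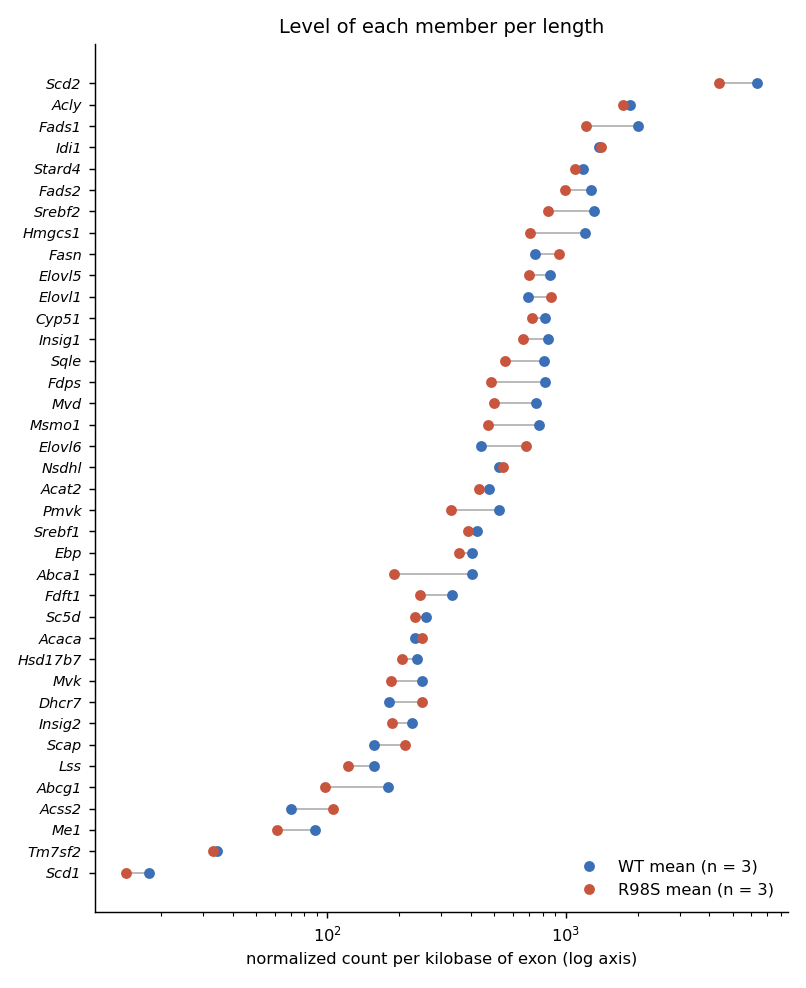
Mean level of each member per kilobase of annotated exon, on a log axis, in WT (blue) and R98S (red), 3 clones each, sorted by level. Scd2 (6329 in WT) lies far above Scd1 (17.8).

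The promoters of the members, 250 bases before to 50 bases after the start from RefSeq on GRCm38.p6, were matched for 30 of the 38 genes. No entry was matched for Fdps, Fdft1, Sqle, Stard4, Abcg1, Scd1, Scd2 and Fads1. They were searched on both strands for 4 motifs. The NF-Y box, with the letters CCAAT, was found for 24 of 30 members (80%, beside 41.1% of all genes with a promoter and 43.4% of those tested). The Sp1 box, with the letters GGGCGG, was found for 25 (83.3%, beside 38.2% and 68.5%). The E-box, with the letters CACGTG, was found for 7 (23.3%, beside 8.09% and 11.7%). The sterol regulatory element, searched only as the exact letters TCACNCCAC, was found for Hmgcs1 alone (3.33%, beside 1.44% and 1.44%). The promoters of Hmgcs1 and Srebf2, which fell, and of Elovl6, which rose, are shown because they differ in these motifs. They do not stand for the direction of change. Acss2, which rose, held 1 NF-Y box and 5 Sp1 boxes, as did Elovl1, which also rose, in its promoter at chr4:118427843-118428142. Fads2, which fell, held 0 NF-Y boxes and 1 Sp1 box, and Elovl5, which fell, held 2 NF-Y boxes and 0 Sp1 boxes. Capitals mark the sterol regulatory element and the NF-Y box, which reads ATTGG when it lies on the other strand.
Hmgcs1, chr13:119690101-119690400, plus strand: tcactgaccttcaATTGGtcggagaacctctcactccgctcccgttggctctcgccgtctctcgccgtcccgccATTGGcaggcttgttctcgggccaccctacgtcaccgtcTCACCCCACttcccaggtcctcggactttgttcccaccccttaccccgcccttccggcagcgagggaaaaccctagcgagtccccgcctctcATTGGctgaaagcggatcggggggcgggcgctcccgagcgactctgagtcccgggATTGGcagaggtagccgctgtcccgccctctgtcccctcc
Srebf2, chr15:82147019-82147318, plus strand: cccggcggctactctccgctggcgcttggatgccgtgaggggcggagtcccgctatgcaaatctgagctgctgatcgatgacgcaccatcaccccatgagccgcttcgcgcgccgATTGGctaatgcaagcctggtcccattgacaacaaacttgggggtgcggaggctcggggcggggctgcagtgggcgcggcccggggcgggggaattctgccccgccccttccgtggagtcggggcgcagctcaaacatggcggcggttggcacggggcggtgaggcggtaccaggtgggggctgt
Elovl6, chr3:129532136-129532435, plus strand: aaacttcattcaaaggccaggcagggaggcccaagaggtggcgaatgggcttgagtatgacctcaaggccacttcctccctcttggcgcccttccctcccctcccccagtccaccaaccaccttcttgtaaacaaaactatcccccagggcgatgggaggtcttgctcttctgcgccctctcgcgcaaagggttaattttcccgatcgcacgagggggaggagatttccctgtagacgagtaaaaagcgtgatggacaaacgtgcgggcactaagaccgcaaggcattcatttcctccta
The Hmgcs1 window held 4 NF-Y boxes, 3 Sp1 boxes and 1 sterol regulatory element, TCACCCCAC. This element began 137 bases before the start and overlapped no NF-Y box. The Srebf2 window held 1 NF-Y box and 5 Sp1 boxes, and the Elovl6 window held none of the 4 motifs. A match is a description of the letters and no evidence of binding. The lack of an exact match is likewise no evidence that a gene has no such element, because variant letters and sequence outside the window were not searched.

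The calls depended on which clone was left out. Across 17 settings, which comprised the test above and 16 alternatives, Abcg1 and Fads1 were called in all 17. Sqle was not called only without WT 29 (adjusted p = 0.104) and Srebf2 was not called only without R98S 11 (adjusted p = 0.101). Hmgcs1, Fdps and Elovl6 were called in 11 settings, Fads2 in 10, Acss2 and Elovl1 in 9 and Elovl5 in 5, whereas 16 members were called in none. The number of members called was 4 without WT 28, 4 without WT 29, 11 without WT 36, 3 without R98S 11, 17 without R98S 13 and 6 without R98S 35. For the sterol enzymes, the count of lower calls ran from 0 without WT 29 to 8 without R98S 13, and without WT 29 Dhcr7 was the one sterol enzyme called higher. Over all genes the share called moved with the same omissions, from 11.4% without WT 28 to 27.8% without R98S 13. On the recovered reads, edgeR called 13 members (34.2%, beside 23.8% of all genes) and DESeq2 called 17 (44.7%, beside 26.9%). Both tools called Scap and Fasn higher and Scd2 lower in R98S, and DESeq2 also called Pmvk, Mvd and Msmo1 lower. None of these genes passed in the limma test above.

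**Figure D5:**
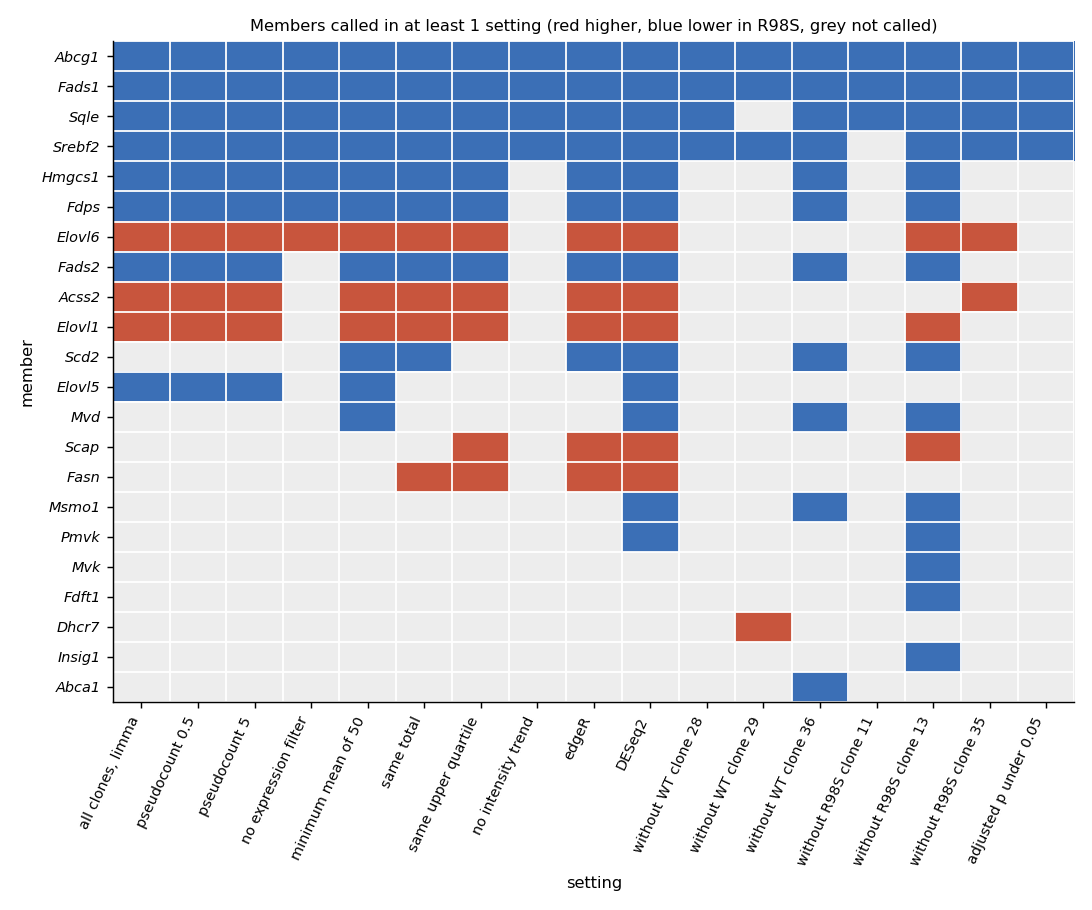
Calls of the 22 members called in at least 1 of 17 settings (columns), blue where lower and red where higher in R98S, grey where not called. The rows of Abcg1 and Fads1 are filled throughout, and the column without R98S 13 is the fullest of those that leave out a clone.

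Other genes of lipid metabolism were counted from 9 lists of 99 genes in all, of which 77 were tested. Of these, 17 (22.1%) were called, 3 higher and 14 lower, a share close to the 23.9% of all genes, and the number called was 10 without WT 28, 9 without WT 29 and 8 without R98S 11. Among 9 genes of SREBP processing and turnover, 3 fell (33.3%, beside 13.1% of all genes lower). They included Mbtps2, 1 of the proteases that release the active factors (2469, 2565 and 2598 in WT, 1815, 1746 and 1560 in R98S, log2 fold change -0.58, adjusted p = 0.0118). Among 5 tested genes of the liver X receptors and their other targets, 2 fell (40%, beside 13.1%). They included Mylip, a ubiquitin ligase for lipoprotein receptors (266.2, 294.5 and 312.2 in WT, 137.9, 90.84 and 203.5 in R98S, -1.08, adjusted p = 0.0387). Of 13 tested genes of sterol uptake and storage, 2 fell (15.4%, beside 13.1% of all genes lower) and 1 rose (7.69%, beside 10.7% higher). Those that fell were Scarb1, a receptor for lipoprotein particles (-0.59, adjusted p = 0.0101), and Lipa, the lysosomal lipase (-0.72, adjusted p = 0.0168). Lrp1, a scavenger receptor, rose (1.24, adjusted p = 0.0783) from no more than 18.43 normalized counts in WT to between 23.47 and 32.84. Of 13 partners of fatty acid synthesis, 2 rose and 2 fell (15.4% each, beside 10.7% of all genes higher and 13.1% lower). Tecr, the reductase that completes each elongation cycle, had the lowest adjusted p of these lists, with 2796, 3083 and 3016 in WT and 1544, 1680 and 1590 in R98S (-0.89, adjusted p = 0.00182). Slc25a1, the carrier that moves citrate out of mitochondria, fell by 0.54 on the log2 scale (adjusted p = 0.0113).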

How the data were processed

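RNA from 6 monoclonal Ba/F3 cultures was sequenced from stranded polyadenylated-RNA libraries, 1 per clone. According to the submitters' processing notes, Bowtie2, TopHat, SAMtools, HTSeq and DESeq2 were used with mm10 (GRCm38). The annotation and the strand setting of the counting are not given in the sources used here. For each gene the authors deposited a signal, their reads scaled by the size factor that DESeq2 gave the library (a normalized count). In each library 100% of values were whole multiples of 1 step (tolerance 1e-06), from which reads were recovered. The step of WT 36, 1.0008, was so near 1 that whole multiples alone do not tell its reads from rounded values, and the edgeR and DESeq2 results rest on reads recovered there in the same way.

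The deposited normalized counts were tested in R 4.3.3 with limma 3.58.1 (pseudocount 1, log2 scale, variance trend over intensity) for genes with a mean of at least 10, two-sided, Benjamini-Hochberg adjustment over all genes tested, threshold 0.1. Fold changes are on this scale, which understates those of weakly expressed genes. edgeR 4.0.16 (quasi-likelihood) and DESeq2 1.42.0 were run on recovered reads. Exon lengths, overlaps and coordinates came from GENCODE M21. Each length covers the exons of all annotated transcripts of a gene and can exceed that of any single transcript, so levels per kilobase depend on it. The limma script was tested on simulated data. The members and lists were chosen with earlier results of these data known. All 38 members were named whatever their values, and of the other lipid genes those called with a log2 fold change of at least 0.5 in size, except for a result that is not reported here. P-values measure the spread between 3 clones of each group, which were derived separately from single cells. Alternatives were other pseudocounts (0.5 and 5), no filter, a minimum mean of 50, other scalings, no trend, a threshold of 0.05, and leaving out each clone.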

Additional observations from a re-analysis of the deposited data

How the results depend on the processing

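No paired analysis was possible because the WT and R98S clones carry different numbers. Over 608 comparisons of single members with an alternative, 516 kept direction and side of the threshold, 55 lost the call, 28 gained one and 9 changed sign. All 9 sign changes came from leaving out a clone, for genes that were not called: over the 6 omissions Idi1 ranged from -0.077 to 0.154, Tm7sf2 from -0.167 to 0.049, Nsdhl from -0.041 to 0.211, Acat2 from -0.332 to 0.032, Stard4 from -0.239 to 0.002 and Acly from -0.314 to 0.024. With no filter, 7 members were called, 1 higher, and the lipogenic enzymes had 1 higher and 1 lower. With no intensity trend, and likewise at a threshold of 0.05, 4 members were called, 0 higher and 4 lower, with 1 sterol enzyme lower and 0 lipogenic enzymes higher and 1 lower. At that threshold 11 other lipid genes and 1722 of all genes were called. Scaling to the same upper quartile and edgeR gave 5 members higher, and DESeq2 gave 17 members called, 5 higher, and 6 sterol enzymes lower. Leaving out 1 clone gave 3 to 17 members called, 0 to 3 higher and 3 to 14 lower, 0 to 1 sterol enzymes higher and 0 to 8 lower, 0 to 2 lipogenic enzymes higher and 1 to 3 lower, 1 to 4 regulators and transport genes, 8 to 17 other lipid genes and 1322 to 3213 of all genes. The median log2 fold change of the members stayed below 0, from -0.35 without WT 28 to -0.16 without R98S 35. Why the calls moved was not tested, apart from the smaller number of clones or the larger number of genes that an alternative brings by construction.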

Other observations

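The genes that activate fatty acids and build glycerolipids had 3 of 12 tested members lower and 0 higher. The share lower was 25%, beside 13.1% of all genes, and the share called in either direction was also 25%, beside 23.9%. Acsl1, a long-chain acyl-CoA synthetase, was 2128, 2250 and 1500 in WT and 723.4, 1082 and 864.1 in R98S (-1.14, adjusted p = 0.0111 by limma). Acsl4, the synthetase that prefers arachidonate, was 4896, 6395 and 4278 in WT and 3209, 3694 and 2816 in R98S (-0.67, adjusted p = 0.0339). Lpin2, a phosphatidate phosphatase, was 4410, 4308 and 6622 in WT and 3419, 3972 and 2392 in R98S (-0.65, adjusted p = 0.0878). In none of these 3 genes did the groups overlap. Of 9 tested genes of fatty acid oxidation, limma called 0, and 0 had an unadjusted p under 0.05 (beside 31.7% of all genes). Of 4 tested oxysterol and side enzymes, limma called 0, and 2 had an unadjusted p under 0.05 (50%, beside 31.7%). Of 8 tested genes of the isoprenoid branches, 1 was lower (12.5%), and of 4 tested lipogenic regulators, 1 was lower (25%), beside 13.1% of all genes.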
